A study of Mus musculus with 13 samples.

Results

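The genes described here are 49 genes of the cell division cycle, 18 that act in S phase and 31 that act in mitosis. They were taken by symbol from lists of known cell cycle genes, drawn up with earlier results of these data known, and all 49 were found among the 21073 genes of the table. Messenger RNA was sequenced in 13 mouse libraries on the C57BL/6J background, all from animals immunized with the myelin peptide MOG35-55 in complete Freund's adjuvant, a procedure used to induce experimental autoimmune encephalomyelitis. DKI mice carry knock-in forms of STAT5 that cannot form tetramers, and WT mice carry normal STAT5. Spleen and lymph node cells were taken on day 14 from mice that received no pertussis toxin, expanded with the peptide under Th17 conditions, and sorted for CD4+ T cells after 3 days. The Th17 groups were WT (2 libraries), DKI (2 libraries), DKI labelled as expanded without CCL17 (3 libraries) and DKI expanded with CCL17, a chemokine (3 libraries). The myeloid groups were sorted on day 14 from DKI mice that also received pertussis toxin. They were bone marrow monocytes, spinal cord monocytes and spinal cord antigen-presenting cells (APCs), with 1 library each and no WT counterpart. The sources used here give no age, sex or number of animals per library.

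In a dividing cell, S phase genes serve DNA replication and mitosis genes serve chromosome segregation and cytokinesis. The S phase set is largely switched on by E2F factors at the end of G1, whereas the mitosis set follows in G2 through the MYB-MuvB complex and FOXM1, often at CHR elements near the start site. Antigen stimulation drives T cells into rapid division. Monocytes descend from dividing bone marrow progenitors and mostly leave the cycle as they mature.

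Some promoter words were found at different rates in the 2 sets, and the choice by symbol did not use these words. RefSeq promoters (GRCm38.p6, from 250 bases before to 50 bases after each start site) were matched for 42 of the 49 genes, 45 promoters in all. Mcm4, Gins2, Ccne2, Ccna2, Aurkb, Tpx2 and Kif20a were not matched. The E2F words TTTCCCGC, TTTCGCGC, TTTGCCGC and TTTGGCGC, searched on both strands, were found in 6 of 16 S phase promoters (37.5%), 1 of 29 mitosis promoters (3.45%) and 2.26% of all 32851 promoters of this length. CHR words (TTTGAA or TTTAAA, both strands) were found in 25 of 29 mitosis promoters (86.2%), 6 of 16 S phase promoters (37.5%) and 27.6% of all promoters. The CCAAT box, CCAAT on either strand, was found in 79.3% of mitosis, 68.8% of S phase and 37.4% of all promoters. A CHR word and a CCAAT box stood together in 75.9% of mitosis, 31.2% of S phase and 10.7% of all promoters. Words of the same kind can overlap, as the E2F words of Mcm5 and Mcm6 do, and a match is a description of letters, not a bound site.

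The 160 bases before the start site are shown for 6 genes, with E2F, CHR and CCAAT words in capitals. They set the helicase genes Mcm5 and Mcm6 beside mitosis genes that differed most between the sets of cultures and beside Ccnb2, whose fold was small. They lie at chr8:75109349-75109508 (Mcm5, plus strand), chr1:128359706-128359865 (Mcm6, minus), chr13:100786487-100786646 (Ccnb1, minus), chr9:70421555-70421714 (Ccnb2, minus), chr7:122159275-122159434 (Plk1, plus) and chr2:164769769-164769928 (Ube2c, plus). Each reads 5′ to 3′ on the strand of its gene.
Mcm5: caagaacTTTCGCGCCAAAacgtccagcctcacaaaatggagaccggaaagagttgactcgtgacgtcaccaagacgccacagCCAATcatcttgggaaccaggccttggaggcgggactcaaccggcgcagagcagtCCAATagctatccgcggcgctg
Mcm6: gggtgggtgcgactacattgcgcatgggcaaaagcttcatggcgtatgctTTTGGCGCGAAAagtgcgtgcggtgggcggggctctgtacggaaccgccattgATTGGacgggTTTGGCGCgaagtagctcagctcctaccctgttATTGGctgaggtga
Ccnb1: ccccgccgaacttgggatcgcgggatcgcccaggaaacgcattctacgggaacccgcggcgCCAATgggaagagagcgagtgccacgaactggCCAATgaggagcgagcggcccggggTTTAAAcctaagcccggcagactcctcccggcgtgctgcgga
Ccnb2: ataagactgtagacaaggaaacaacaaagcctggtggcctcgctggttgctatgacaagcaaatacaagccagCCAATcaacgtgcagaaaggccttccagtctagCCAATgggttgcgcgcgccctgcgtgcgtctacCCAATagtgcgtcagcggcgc
Plk1: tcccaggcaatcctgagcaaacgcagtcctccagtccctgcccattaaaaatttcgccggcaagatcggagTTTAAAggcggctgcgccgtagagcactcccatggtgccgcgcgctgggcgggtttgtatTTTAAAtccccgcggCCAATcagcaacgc
Ube2c: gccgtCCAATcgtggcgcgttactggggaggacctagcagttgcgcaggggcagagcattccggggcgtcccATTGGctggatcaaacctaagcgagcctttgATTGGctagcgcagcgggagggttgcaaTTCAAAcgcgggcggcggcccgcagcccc

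The promoters of Mcm5 and Mcm6 hold E2F words and CCAAT boxes in this window, and those of Ccnb1, Plk1 and Ube2c hold CHR words and CCAAT boxes. The promoters of the helicase genes Mcm2, Mcm3 and Mcm7, not shown, hold no whole E2F word in this window. Ccnb2 holds 3 CCAAT boxes in the window, and its CHR words lie outside it, beginning 167 bases before and 4 bases after the start site. The mitosis genes shown were picked by fold and do not stand for the set. Nusap1, with a log2 fold of 1.11 between the sets of cultures, holds no CHR or CCAAT word in its whole promoter. Cenpa, with the smallest mitosis fold (0.16), holds 2 of each. Whether these words go with the folds was not tested.

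All levels are log2(RPKM + 1), where RPKM corrects the read number for gene length and library size, so that levels of genes are compared per length. Estimated reads ranged from 12600000 to 31800000 per library. The sorted T cells held T cell marker RNA (9 genes, summed RPKM 2220 to 3000) and Th17 marker RNA (7 genes, 288 to 3460), and the myeloid libraries held monocyte markers (9 genes, 13400 to 22100) with T cell markers at 1.36 to 30.5. Stat5a (Entrez 20850) was at 5.36 to 5.71 and Stat5b (Entrez 20851) at 5.62 to 6.31 in the Th17 libraries, and at 2.95 to 3.99 and 3.68 to 5.11 in the myeloid libraries. The DKI alleles are knock-ins, and RNA levels of the genes do not check them.

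By mean level, S phase genes stood above mitosis genes in the WT and DKI cultures and in the cord libraries. By the same measure they were level with them in the CCL17 experiment and in bone marrow monocytes. The mean over the 18 S phase genes was 4.25 in WT replicate 1, 5.15 in WT replicate 2, 4.52 in DKI replicate 1 and 5.61 in DKI replicate 2. The mean over the 31 mitosis genes was 3.52, 4.28, 3.87 and 4.67 in the same order. The S phase mean thus exceeded the mitosis mean by 0.73, 0.88, 0.65 and 0.94. In cultures without CCL17 the S phase means were 5.39, 5.02 and 5.0 and the mitosis means 5.33, 5.02 and 5.01. With CCL17 they were 5.28, 5.07 and 5.03 for S phase and 5.16, 5.07 and 5.06 for mitosis. In these 6 libraries the difference between the sets lay between -0.04 and 0.12, and it overlapped with neither the WT nor the DKI libraries. Bone marrow monocytes stood at 5.27 and 5.21, cord monocytes at 2.39 and 1.35, and cord APCs at 2.55 and 1.44. Summed RPKM, over 18 and 31 genes, placed the sets otherwise. The log2 ratio of the S phase to the mitosis sum was 0.06 to 0.34 in the WT and DKI cultures. It was -0.63 to -0.51 in the CCL17 experiment and -0.66 in bone marrow monocytes, where the mitosis sum was larger. In cord monocytes and cord APCs it was 1.31 and 1.28. In bulk RNA, fewer dividing cells and less of these RNAs per cell cannot be told apart.

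**Figure D1:**
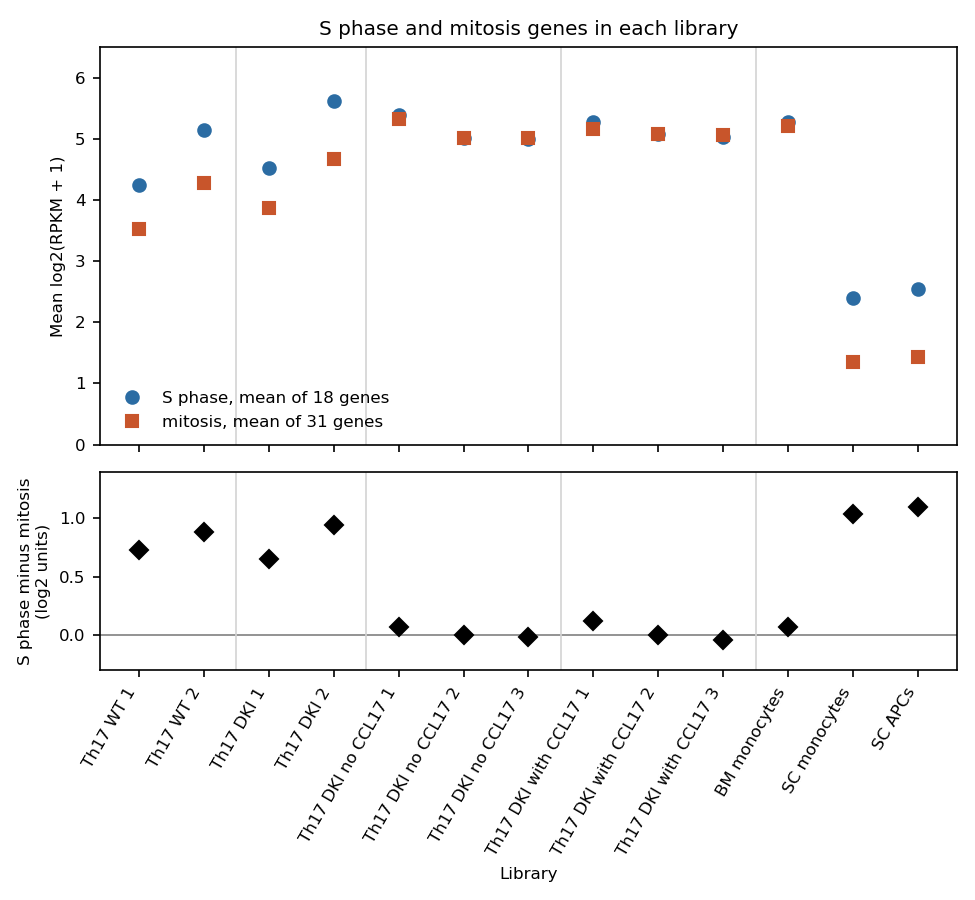
Mean log2(RPKM + 1) of the 18 S phase genes (blue circles) and the 31 mitosis genes (orange squares) in each of the 13 libraries, above their difference in log2 units (black diamonds). The difference is 0.65 to 0.94 in the 4 WT and DKI cultures, -0.04 to 0.12 in the 6 libraries of the CCL17 experiment, 0.07 in bone marrow monocytes, and 1.04 and 1.10 in the cord libraries.

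Levels within each set spread widely. Of the S phase genes, the helicase subunit gene Mcm6, the sliding clamp gene Pcna and the ribonucleotide reductase gene Rrm2 were high in cultured T cells, with Mcm6 at 6.27 to 7.39 and Pcna at 5.96 to 7.35. Ccne2, for a cyclin of the G1 to S step, was the lowest there at 1.58 to 3.39. Among mitosis genes, the DNA topoisomerase gene Top2a was at 5.61 to 7.73, and Cenpf, for a large kinetochore protein, at 2.03 to 4.03. Near-identical pseudogene copies of Pcna, Tyms, Ccnb1 and Ccnb2 are annotated in RefSeq, so reads of these genes could have been shared with them and their levels are less certain.

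**Figure D2:**
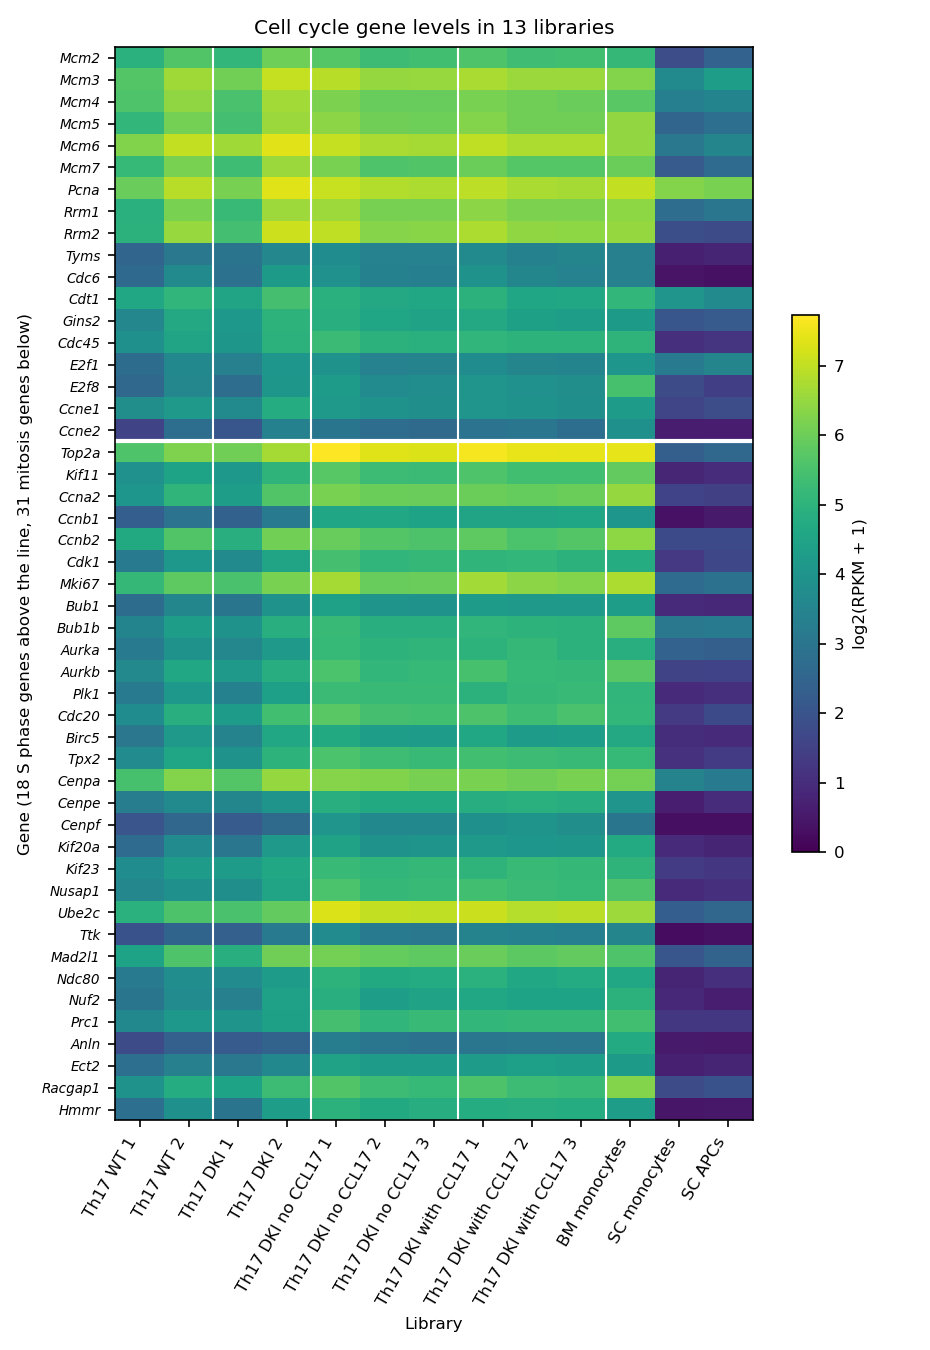
Level of each gene, log2(RPKM + 1) on the color scale, by gene (rows, 18 S phase genes above the white line, 31 mitosis genes below) and library (columns). The second WT and DKI libraries are brighter than the first in both sets, and the last 2 columns, the cord libraries, are dark except for genes such as Pcna.

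The first Th17 comparison set DKI against WT cultures, that is, T cells without and with STAT5 tetramers. No cell cycle gene was called, 0 of 49 at an adjusted p under 0.05, where 0% of the 11078 genes tested were called (limma, Benjamini-Hochberg) and 1879 had an unadjusted p under 0.05. All 49 passed the filter on low values in this and the other Th17 comparisons. Every member had a higher mean in DKI cells, with log2 folds from 0.07 (Mcm4) to 0.56 (E2f1), and 54.7% of all genes had folds above 0. The median fold was 0.36 over S phase genes, 0.37 over mitosis genes and 0.03 over all genes. The groups nevertheless overlapped in all 49 members, while 39.9% of all genes did not overlap. Nothing states that replicates came from separate animals, so p-values measure only the spread between libraries. That spread was taken from all Th17 libraries, those of the CCL17 experiment included. With the WT and DKI libraries fitted alone, 645 genes had an unadjusted p under 0.05 (limma). The smallest adjusted p of a member was then 0.724, against 0.291 in the main fit.

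The overlap came with a shift between the libraries of each group. WT replicate 2 was above WT replicate 1 in 49 of 49 members, by a median of 0.95 for S phase and 0.74 for mitosis genes, and in 56.7% of all genes. DKI replicate 2 was above DKI replicate 1 in 49 of 49 members, by 1.12 and 0.82, and in 53.2% of all genes. The DKI pair also differed in its summed Th17 marker RNA, at 1910 RPKM in replicate 1 and 288 in replicate 2, while the WT pair was at 724 and 716. The part of this marker difference in the cell cycle values was not tested. Set by replicate number, the DKI mean was above the WT mean in both. For S phase genes it was 4.52 against 4.25 and 5.61 against 5.15. For mitosis genes it was 3.87 against 3.52 and 4.67 against 4.28. Mcm4, Cdt1 and Ccne1 were lower in DKI replicate 1 than in WT replicate 1. With the replicate number as a block, limma called 0 of 49 members (smallest adjusted p 0.234). The main fit did not assume this pairing.

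Rrm2, a subunit of the enzyme that makes deoxynucleotides, had the widest shift. WT cells stood at 4.97 and 6.54 and DKI cells at 5.41 and 7.15, so each genotype had 1 high and 1 low library (log2 fold 0.53, SE 0.60, limma adjusted p 0.666). E2f1, for the factor that opens S phase, read 2.73 and 3.60 for WT against 3.38 and 4.07 for DKI, an overlap with the largest fold of the set (0.56, SE 0.32, adjusted p 0.391). Ccne1, for cyclin E1, read 3.82 and 4.14 for WT against 3.66 and 4.78 for DKI, where the lowest and the highest value were both DKI. Tyms, the thymidylate synthase gene, had a fold of 0.47 (SE 0.24, adjusted p 0.348), and Ccne2 one of 0.55 (SE 0.45, adjusted p 0.546). The smallest S phase folds were those of Mcm4 (0.07), Cdt1 (0.14), Ccne1 (0.24) and Mcm7 (0.27).

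Of the mitosis genes, Kif23, for a motor of the cell midzone, had the smallest adjusted p. Its levels were 3.77 and 4.28 for WT against 4.24 and 4.61 for DKI (0.40, SE 0.17, limma unadjusted p 0.0476, adjusted p 0.291). Kif23 was the only member below 0.05 without adjustment in the fit of all Th17 libraries, as were 17% of all genes. Mki67, the gene for the proliferation antigen Ki-67, read 5.15 and 5.80 for WT against 5.52 and 6.16 for DKI, with overlapping groups (0.37, SE 0.32, adjusted p 0.573). The kinase gene Ttk (0.55, SE 0.29), the kinetochore genes Nuf2 (0.51) and Ndc80 (0.50) and the centralspindlin gene Racgap1 (0.52) had the largest mitosis folds with the checkpoint gene Bub1b (0.51), and Cenpf (0.14), Ccnb1 (0.18), Cenpa (0.19) and Plk1 (0.22) the smallest.

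These folds depended on which library was kept, and each such fit leaves a library without its same-numbered counterpart. Without WT replicate 1 the median was -0.10 for S phase and -0.03 for mitosis genes, and without DKI replicate 2 it was -0.22 and 0.00. Without WT replicate 2 it was 0.82 and 0.75, and without DKI replicate 1 it was 0.90 and 0.78. Of the other genes of the pathway, 0 of 37 other DNA replication genes and 0 of 39 other mitosis genes were called, with medians of 0.31 and 0.40. Of 8 genes linked to quiescence 0 were called, with a median of -0.45. Myeloid marker genes were lower in DKI cells with no overlap in 8 of 8 cases (median -0.96, 0 called), while 20.1% of all genes were lower without overlap. Their summed RPKM was 87.1 in WT replicate 1, 46.2 in WT replicate 2, 20.4 in DKI replicate 1 and 33.1 in DKI replicate 2. Their part in the cell cycle values was not tested.

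A further comparison, within DKI Th17 cultures, concerned the addition of CCL17. No cell cycle gene was called, 0 of 49, where 0% of 11297 genes were called and 3.64% had an unadjusted p under 0.05. The adjusted p was 0.999 for each member (limma, Benjamini-Hochberg). The median log2 fold with against without CCL17 was -0.01 for S phase genes, with a range from -0.18 (Gins2, of the replicative helicase) to 0.11 (Ccne2). For mitosis genes the median was -0.02, with a range from -0.19 (Cdk1, the mitotic kinase) to 0.26 (Mki67), and the median over all genes was -0.01. Folds were above 0 in 14 of 49 members and in 45.8% of all genes.

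Cdk1 was at 5.44, 5.10 and 5.16 without and at 5.06, 5.12 and 4.96 with CCL17, so the groups overlapped (-0.19, SE 0.10). Mki67 was at 6.68, 5.93 and 5.96 without and at 6.66, 6.38 and 6.31 with CCL17, again with overlap (0.26, SE 0.22). Plk1, the polo-like kinase gene, was the only member without overlap, at 5.27, 5.22 and 5.22 without and at 4.96, 5.15 and 5.20 with CCL17 (-0.13, SE 0.07, limma adjusted p 0.999), and 9.49% of all genes did not overlap. Mcm2 and Mcm5 (-0.01 and -0.02, SE 0.12 each), Pcna (-0.09, SE 0.10), Top2a (0.04, SE 0.12) and Ccnb1 (-0.01, SE 0.06) lay close to 0. A miss of the threshold does not show equal levels, and these standard errors bound what could be seen. The remaining extremes were Cdc6 (0.10) and Ccne1 (-0.05) in S phase, and Cenpf (0.14), Cenpe (0.10), Ube2c (-0.12), Cenpa (-0.11) and Prc1 (-0.11) in mitosis.

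The first replicates stood apart here too. Without CCL17, replicate 1 was above replicates 2 and 3 in 18 of 18 S phase genes, by medians of 0.34 and 0.36, and above them in 30 and 31 of 31 mitosis genes, by medians of 0.32 and 0.33. With CCL17, replicate 1 was above replicate 2 in 17 of 18 and above replicate 3 in 18 of 18 S phase genes, by medians of 0.22 and 0.23. For mitosis genes these counts were 21 and 23 of 31, by a median of 0.10 each. Of all genes, 45.8% and 47% were higher in replicate 1 without CCL17, and 47.6% in each case with CCL17. Marker RNA of the first replicates differed too. Neutrophil markers summed to 592 RPKM in replicate 1 against 270 and 301 without CCL17, and to 842 against 287 and 271 with it. Th17 markers summed to 1800 RPKM against 3430 and 3460 without CCL17, and to 1470 against 3320 and 3410 with it. The hemoglobin gene Hbb-bs was at 6.28 in replicate 1 with CCL17 and at 2.09 to 2.69 in the other 5 libraries of this experiment. The part of these cells in the cell cycle values was not tested. With the replicate number as a block, limma called 2 of all genes, both higher with CCL17, and 0 of 49 members (smallest adjusted p 0.213).

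DKI cultures occurred in both sets, as the DKI group and as the DKI group labelled as without CCL17, and neither is labelled as given the chemokine. Comparing them shows how the sets of cultures differ with genotype held fixed. Mitosis genes were higher in the cultures of the CCL17 experiment and S phase genes were not called in either direction. The groups did not overlap in 22 of 31 mitosis genes, all higher, and in 0 of 18 S phase genes, while 26% of all genes were higher without overlap. Of 31 mitosis genes, 16 rose (51.6%) and 0 fell, and 0 of 18 S phase genes passed (limma, adjusted p under 0.05). The call rate over all 11507 genes was 33.2%, with 15.4% higher and 17.8% lower. The median log2 fold was 0.82 for mitosis, 0.07 for S phase and -0.01 for all genes. The labels do not say whether the sets shared a day, a mouse cohort or a sequencing run, so the set of cultures and any such factor cannot be told apart.

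Among the cyclins and their kinase, Ccnb1, the gene of cyclin B1, which activates CDK1 for entry into mitosis, had the largest fold. It was at 2.39 and 3.22 in DKI and at 4.56, 4.60 and 4.47 in DKI without CCL17, with a wide gap between the groups (2.80 ± 0.59, SD, n = 2, and 4.54 ± 0.07, SD, n = 3). The log2 fold was 1.74 (SE 0.24, limma adjusted p 0.00142). As for each gene of this comparison, the SE pools the spread of all 10 Th17 libraries. For Ccnb1 the DKI libraries varied more than those without CCL17, so the SE can understate the spread of the DKI group. Its paralog Ccnb2, for cyclin B2, was at 4.86 and 6.08 against 5.93, 5.65 and 5.56, an overlap (0.24, SE 0.36, adjusted p 0.648). Cdk1 was at 3.69 and 4.51 in DKI and at 5.44, 5.10 and 5.16 without CCL17, without overlap (1.14, SE 0.29, adjusted p 0.0186). Ccna2, for cyclin A2, was at 4.30 and 5.64 against 6.19, 5.98 and 5.95, and its fold of 1.07 missed the threshold (SE 0.38, adjusted p 0.0596).

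Of the mitotic kinases, Plk1 and Aurka, which act at centrosomes and the spindle, rose. Plk1 was at 3.40 and 4.37 in DKI and at 5.27, 5.22 and 5.22 without CCL17 (1.35, SE 0.31, adjusted p 0.011). Aurka was at 3.57 and 4.15 in DKI and at 5.19, 5.01 and 5.07 without CCL17, all above both DKI libraries (1.23, SE 0.22, adjusted p 0.00403). Aurkb, for the kinase of the chromosomal passenger complex, had a fold of 0.81 (SE 0.29) and its partner Birc5, for survivin, of 0.41 (SE 0.38), and neither was called (adjusted p 0.0625 and 0.452). The checkpoint genes Bub1 (0.65), Bub1b (0.58), Ttk (0.58) and Mad2l1 (0.49) were not called either.

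Ube2c, for the ubiquitin-conjugating enzyme of the anaphase-promoting complex, was at 5.5 and 5.88 in DKI and at 7.31, 7.01 and 6.98 without CCL17, more than a log2 unit above both (1.41, SE 0.20, adjusted p 0.00147). Cdc20, for an activator of the same complex, was at 4.23 and 5.38 against 5.74, 5.45 and 5.40, with DKI replicate 2 close below them (0.73, SE 0.37, adjusted p 0.165).

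At the kinetochore, Cenpf was at 2.21 and 2.66 in DKI and at 4.03, 3.60 and 3.61 without CCL17, apart by almost a log2 unit (1.31, SE 0.20, adjusted p 0.00217). The kinesin gene Cenpe (1.0, adjusted p 0.00248) and Ndc80 (0.82, adjusted p 0.0172) rose as well, while Nuf2, the partner of Ndc80, had a fold of 0.64 (adjusted p 0.152). Cenpa, the gene of the histone variant that marks centromeres, had the smallest mitosis fold, at 5.65 and 6.52 against 6.34, 6.26 and 6.13 with full overlap (0.16, SE 0.27, adjusted p 0.695).

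Of the genes for spindle and midzone proteins, 5 were called, namely the microtubule-binding genes Hmmr (1.20, adjusted p 0.0425) and Nusap1 (1.11, adjusted p 0.00413), the midzone bundler Prc1 (1.06, adjusted p 0.00315), and the kinesins Kif11 (0.85, adjusted p 0.0401) and Kif23 (0.73, adjusted p 0.00918). Calls of Hmmr and Kif11 were less steady, in 7 and 6 of 14 alternative fits, against 13 for Nusap1 and Prc1 and 12 for Kif23. Tpx2, an activator of Aurora A, at 0.89 (adjusted p 0.0541) and the kinesin gene Kif20a at 0.55 (adjusted p 0.285) were not called. Of the cytokinesis genes, Ect2 (0.97, adjusted p 0.00522) and Anln (0.73, adjusted p 0.0136) rose, and Racgap1 (0.47, adjusted p 0.251) was not called. Top2a was at 6.04 and 6.68 in DKI and at 7.73, 7.36 and 7.33 without CCL17, without overlap (1.11, SE 0.23, adjusted p 0.00774). Mki67 was at 5.52 and 6.16 against 6.68, 5.93 and 5.96, an overlap (0.35, SE 0.29, adjusted p 0.394).

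S phase genes lay on both sides of 0. Mcm2 and Mcm6, subunits of the helicase, had folds of -0.12 (SE 0.28) and -0.17 (SE 0.26), and Mcm5 of 0.16 (SE 0.35). Mcm2 was at 5.13 and 6.03 in DKI and at 5.70, 5.30 and 5.38 without CCL17, between the DKI libraries. Cdt1, which loads the helicase, had the lowest fold (-0.25, SE 0.27) with Ccne1 (-0.23, SE 0.28), and Cdc6, its partner in loading, had -0.01 (SE 0.42). Cdc45 (0.52, SE 0.27) and E2f8, a repressor of the E2F family (0.51, SE 0.39), had the highest, and the smallest adjusted p of the set was 0.173, for Cdc45. Rrm1 (0.38), Rrm2 (0.28), Tyms (0.26) and Pcna (0.15) lay between.

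**Figure D3:**
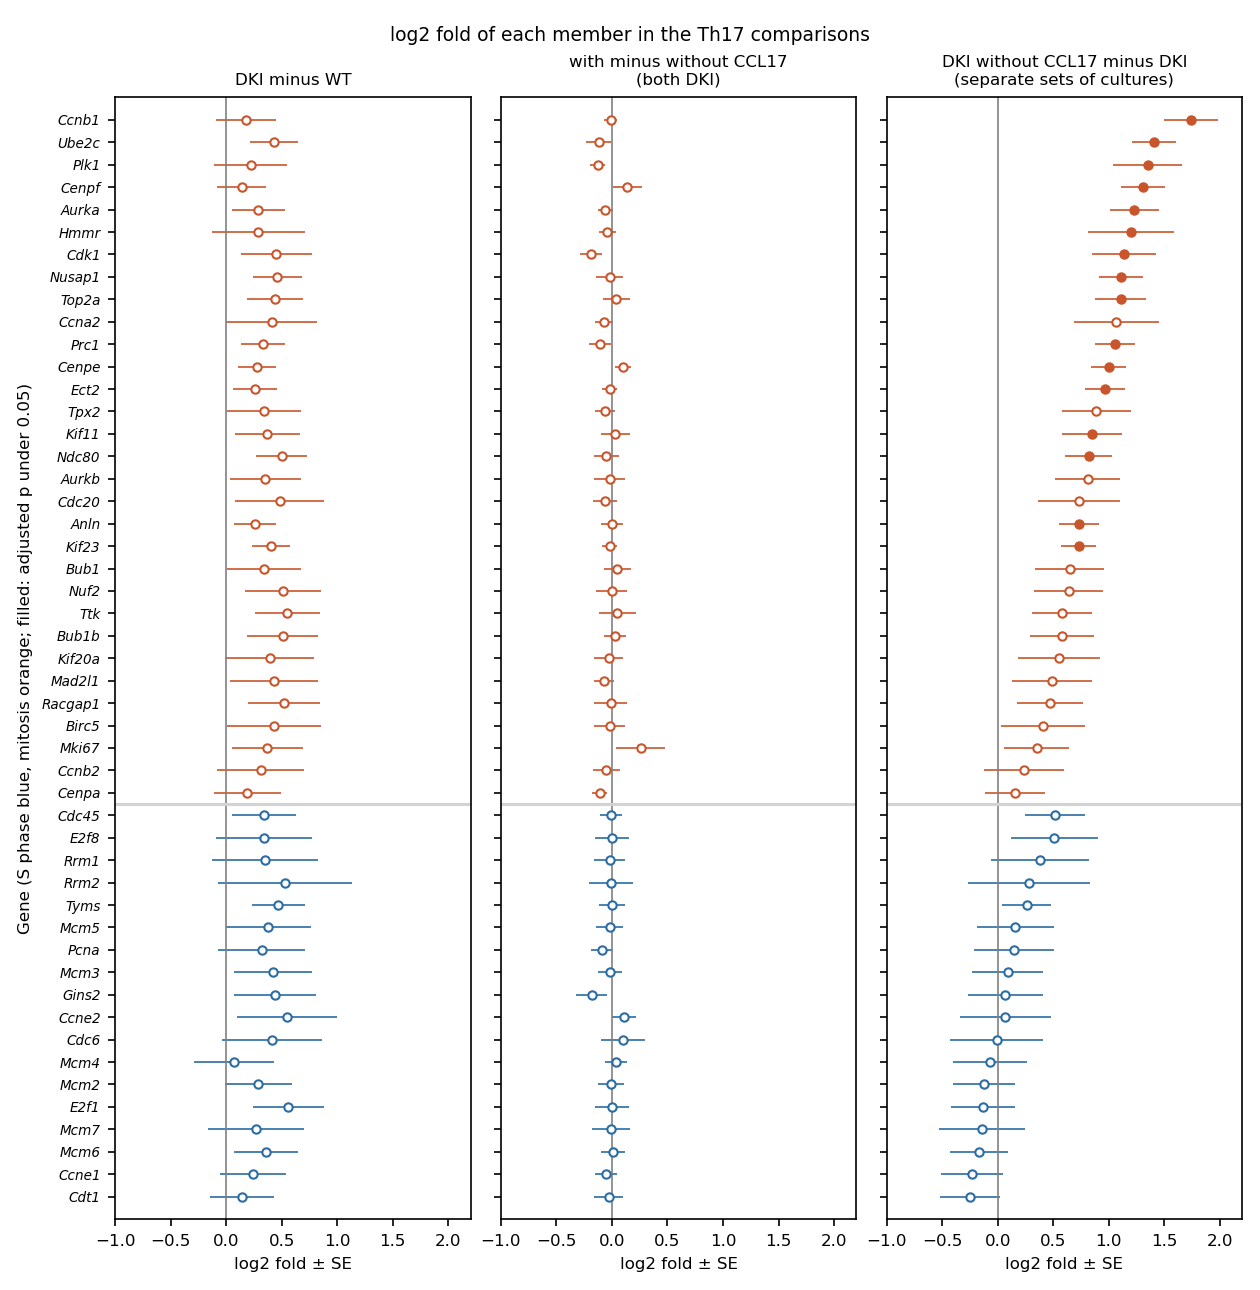
log2 fold with its standard error (bars) for each gene in the 3 Th17 comparisons, mitosis genes in orange above S phase genes in blue, with filled circles for an adjusted p under 0.05. Filled circles occur only in the right panel, where 16 mitosis genes lie between 0.73 and 1.74, and no S phase gene is filled in any panel.

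The contrast shares its DKI libraries with the DKI and WT comparison and its others with the CCL17 comparison. Without DKI replicate 1 the medians were -0.51 for S phase and 0.47 for mitosis genes. Each fit that leaves out a DKI library keeps 1 library in that group, which is assumed to vary like the libraries of the other groups, so calls from it have no spread of their own behind them. In the fit without DKI replicate 1, in which the group is DKI replicate 2, the fold was -0.79 for Ccne1 and -0.73 for Cdt1. Without DKI replicate 2 the medians were 0.57 and 1.22, with folds of 0.97 for Cdc45 and 1.16 for E2f8 of S phase. Of the 16 mitosis genes, 9 were called in each of the 5 fits that left out 1 library, these single-library fits included, and all 16 kept a fold above 0. A fit of the 2 compared groups alone called 14 of 49 members and 2423 of the 11507 genes tested. With the replicate number as a block, chosen after seeing the data, that fit called 4 members and 833 genes. Deviations of same-numbered libraries of these groups correlated at 0.13 and 0.10.

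Set side by side, the 6 libraries of the CCL17 experiment lay above all 4 WT and DKI libraries in 21 of 31 mitosis genes (67.7%) and in 0 of 18 S phase genes, while 19.7% of all genes lay above and 22.1% below. Ccnb1 was at 4.47 to 4.60 in the 6 libraries and at 2.30 to 3.22 in the 4. Ube2c was at 6.87 to 7.31 against 4.94 to 5.88. Mcm2 was at 5.30 to 5.70 in the 6 libraries, within its span of 4.95 to 6.03 in the 4. The 10 mitosis genes that overlapped were Ccnb2, Mki67, Cdc20, Birc5, Cenpa, Kif20a, Ttk, Mad2l1, Nuf2 and Racgap1.

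Other genes of the pathway fell on the same sides in the comparison of the DKI cultures. Of 39 other mitosis genes 17 rose and 0 fell (median 0.66), including Cks2 (1.11), a subunit of CDK complexes, the spindle genes Ckap2l (1.05) and Aspm (0.98), and Sgo1 (0.89), which protects cohesion. Of 37 other DNA replication genes 0 passed (median 0.17). Lin54 of the MuvB core was the only one of 15 E2F, DREAM and MYB-MuvB regulators to rise (0.55, adjusted p 0.0218), and Foxm1 (0.35, adjusted p 0.248) and Mybl2 (0.05, adjusted p 0.909) were not called. Cdkn1a, for the inhibitor p21, rose (0.88, adjusted p 0.0118), as did Cdkn2a (0.65, adjusted p 0.0428), and Cdkn1b, for p27, fell (-0.52, adjusted p 0.0493). Of 9 G1 cyclins and kinases only Ccnd1 rose (0.73), from a low level of 0.34 to 1.07. Of 9 p53 target genes 3 rose, Gadd45a (1.48), Ccng1 (0.31) and Bax (0.28). Of 8 genes linked to quiescence 5 fell, including Pik3ip1 (-1.48), Klf2 (-1.41) and Foxo1 (-0.58).

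Markers of other cells moved with this contrast. Myeloid markers rose in 8 of 8 cases (median 4.06), with a summed RPKM of 20.4 to 87.1 in the WT and DKI libraries and 640 to 1030 in the CCL17 experiment, against 20500 in bone marrow monocytes, and none of the 8 was at 0 in any library. B cell markers rose in 6 of 6 cases (7.55 to 16.0 against 60.3 to 93.9 RPKM). Neutrophil markers rose in 7 of 8 cases (3.62 to 17.6 against 270 to 842 RPKM). Of 6 progenitor markers tested 4 rose, Cd34 (2.07), Ctsg (2.44), Ms4a3 (1.35) and Prtn3 (1.35). Most of the list's sum in the WT and DKI libraries was Kit (15.9 to 39.4 against 17.0 to 21.5 RPKM, not called). Without Kit the list summed to 0.419 to 2.21 RPKM in the WT and DKI libraries and 12.6 to 26.7 in the CCL17 experiment, against 842 in bone marrow monocytes, with Elane at 0 in each WT and DKI library. Macrophage and microglia markers rose in 6 of 8 cases tested, and dendritic cell markers rose in 4 of 8 and fell in 1. T cell markers fell in 5 of 9 cases (median -0.28, 2910 to 3000 against 2220 to 2610 RPKM). The part of other cells in the mitosis values was not tested. The median exon length was 3181 bases for S phase and 3398 for mitosis genes, and the median fold over all genes was 0.03 among the 3657 shortest and -0.05 among the 3656 longest.

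The myeloid comparison asked how monocytes of the inflamed cord differ from those of the bone marrow in DKI mice. Each group is 1 library, so there is no test, and a difference between organs cannot be told apart from one between libraries. All 49 cell cycle genes were lower in the cord library, as were 68.5% of the genes counted. Genes were counted at an RPKM of at least 5 in either library, so a gene that reached 5 in 1 library only was bound to be higher there. All 49 members, chosen by symbol, reached 5 in bone marrow. In the cord library only Mcm3, Mcm4, Mcm6, Pcna, Rrm1, Cdt1, E2f1, Mki67, Bub1b and Cenpa did. For the others the direction among counted genes carries no weight of its own. A log2 difference of at least 2, that is 4-fold, was reached by 31 of 31 mitosis genes and by 15 of 18 S phase genes, where 11.4% of 8182 genes passed that mark and 5.13% were lower. The median difference was -3.81 for mitosis, -3.12 for S phase and -0.37 for all genes counted. Differences of low genes are understated on this scale, so ratios of RPKM are given with exact 95% intervals (Clopper-Pearson) on estimated reads, which cover counting error only.

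Pcna, E2f1 and Cdt1 were the S phase genes short of 4-fold. Pcna was at 7.01 in bone marrow and 6.29 in cord monocytes, 1.65-fold lower (1.58 to 1.73), and it had the highest level of the 49 genes in the cord library, where Top2a had it in bone marrow. E2f1 was at 4.06 and 3.22, 1.88-fold lower (1.72 to 2.06), and Cdt1 at 5.12 and 4.02, 2.22-fold lower (2.06 to 2.41). Gins2, at 4.21 and 2.08, was the next smallest difference. Pcna also acts in DNA repair, and E2f1 and Cdt1 act at the entry to S phase. The helicase genes differed by more, with Mcm5 at 6.47 and 2.51 and Mcm2 at 5.15 and 1.84. On the log2(RPKM + 1) scale Rrm2 had the largest S phase difference, at 6.51 and 1.87 (-4.64), followed by Cdc45 (-3.97), Mcm5 (-3.96) and Mcm7 (-3.79). By the ratio of RPKM the order was another, with Rrm2 33.8-fold (28.8 to 40.0), Cdc6 28.9-fold (21.2 to 40.4), Cdc45 28.8-fold (22.4 to 37.5) and Ccne2 26.4-fold (19.5 to 36.5) lower, with intervals that overlap, and Mcm5 18.6-fold and Mcm7 17.3-fold lower. Cyclin E genes were both lower, Ccne1 at 4.28 and 1.63 and Ccne2 at 3.88 and 0.60. Tyms (3.38 and 0.67) and Cdc6 (3.37 and 0.41) were near the lower end of the scale in the cord.

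Mitosis genes differed by -2.45 to -5.11. Top2a was at 7.45 in bone marrow and 2.34 in cord monocytes, 42.9-fold lower (39.5 to 46.7). Kif11, the motor that separates spindle poles, was at 5.87 and 0.84, 72.2-fold lower (59.5 to 88.9), and Ccna2 at 6.5 and 1.56, 46.1-fold lower (39.3 to 54.6). Ccnb2 (-4.68) followed. Ccnb1 was at 4.07 and 0.37, 54.5-fold lower (34.8 to 91.0), with an estimated 19 reads left in the cord library. The smallest differences on the log2(RPKM + 1) scale were those of Aurka (4.86 and 2.42), Cenpa (6.12 and 3.46), Cenpf (3.01 and 0.32) and Bub1b (5.80 and 3.09). By the ratio of RPKM, Aurka was 6.48-fold, Cenpa 6.84-fold and Bub1b 7.26-fold lower, the smallest ratios of the mitosis set, whereas Cenpf, with a low level in both, was 29.0-fold lower (22.9 to 37.1). Mki67 (6.79 and 2.70), Cdk1 (4.78 and 1.29), Plk1 (5.08 and 0.94), Aurkb (5.74 and 1.59), Cdc20 (5.12 and 1.32), Birc5 (4.67 and 1.0) and Hmmr (4.33 and 0.47) lay between.

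**Figure D4:**
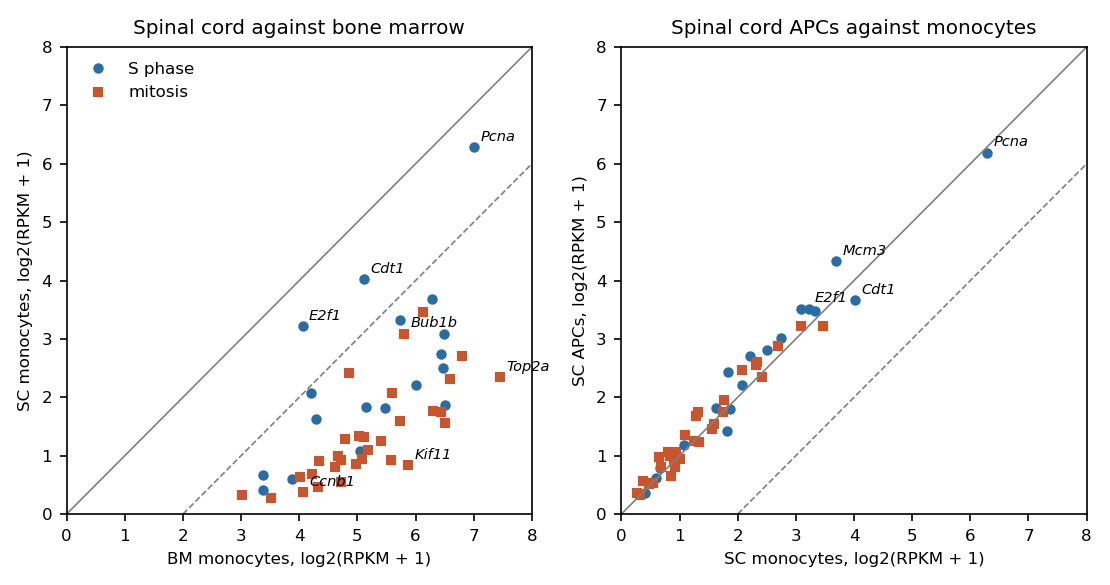
Level of each gene, log2(RPKM + 1), in cord against bone marrow monocytes (left) and in cord APCs against cord monocytes (right), with S phase genes as blue circles and mitosis genes as orange squares. The solid line marks equal levels and the dashed line a 4-fold lower level. At left, 46 genes lie on or below the dashed line, with Pcna, E2f1 and Cdt1 above it, and at right all 49 lie near the solid line.

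Other pathway genes were in part lower too. Of 35 other DNA replication genes counted, 35 were lower and 18 passed 4-fold (median -2.01), and of 38 other mitosis genes 35 passed it (median -3.41). Of 11 E2F, DREAM and MYB-MuvB regulators counted, 11 were lower and 5 passed 4-fold (median -1.5). Foxm1 was at 4.65 and 1.03 and Mybl2 at 2.65 and 0.24, whereas Lin54 was at 3.86 and 3.26 and Lin37 at 3.67 and 3.58. Their part in the mitosis values was not tested. The cyclin D genes differed in direction. Ccnd3 was at 7.20 in bone marrow and 4.38 in cord monocytes, whereas Ccnd1 was at 0.79 and 3.66 and Ccnd2 at 0.34 and 3.09. Of 7 CDK inhibitor and retinoblastoma family genes counted, 6 were lower in the cord and 3 of them passed 4-fold (median -1.57). Cdkn2c was among them, at 5.52 and 2.10. The inhibitor gene Cdkn1a was the only one higher, at 4.77 and 8.57. Of 7 p53 target genes counted 5 were higher (median 1.19), with Gadd45a at 4.33 and 7.27 and Mdm2 at 4.78 and 7.19. Of 7 genes linked to quiescence counted, 6 were higher and 2 passed 4-fold (median 0.46), with Btg1 at 6.30 and 8.53.

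Markers of other cells moved with this difference as well. Progenitor markers summed to 842 RPKM in bone marrow and 40.8 in cord monocytes, with none of the list at 0 in either library. Of 8 counted genes 6 were 4-fold lower in the cord, among them Mpo (-6.29) and Elane (-5.95). Cd34 went the other way and was 4-fold higher in the cord, at 1.14 in bone marrow and 3.28 in cord monocytes. Neutrophil markers summed to 6330 and 742 RPKM (5 of 6 counted genes 4-fold lower), and macrophage and microglia markers to 545 and 7440 RPKM (7 of 12 4-fold higher). The part of progenitors in the bone marrow sort, or of resident cells in the cord sort, was not tested.

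Cord APCs were compared with cord monocytes, the cells the labels give beside them. No cell cycle gene differed by 4-fold, and 0.32% of 7499 genes did. The cord libraries held so little of these RNAs that 13 of 49 members reached an RPKM of 5 in either library, 9 of S phase and 4 of mitosis. Among the genes that reached it, the median difference was 0.29 for S phase genes, 0.16 for mitosis genes and 0.03 for all genes counted. Over all members, most of them below that level, it was 0.14 for S phase and 0.10 for mitosis genes. The helicase genes were slightly higher in APCs. Mcm3 was at 3.69 in monocytes and 4.33 in APCs, 1.60-fold higher (1.48 to 1.74), and Mcm2 at 1.84 and 2.43, 1.69-fold higher (1.43 to 2.00). Cdt1 was at 4.02 and 3.66, a ratio of 0.767 (0.691 to 0.851), and E2f8 at 1.81 and 1.43, a ratio of 0.676 (0.550 to 0.826). Ccnb1 (0.37 and 0.56) and Plk1 (0.94 and 1.03) were near the lower end of the scale in both, with intervals of the ratio that include 1. Macrophage and microglia markers were higher in APCs in 13 of 13 cases (7440 and 15900 RPKM). Dendritic cell markers were higher in 6 of 6 genes counted (9300 and 17700 RPKM) and neutrophil markers in 6 of 6 (742 and 1050 RPKM), with 2 genes past 4-fold in each list. The part of these cells in the differences was not tested.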

How the data were processed

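Libraries were made from total RNA with a KAPA mRNA HyperPrep kit, per the labels' protocols. Subread and featureCounts were used with build mm10, per the submitters' processing notes. The sources used here give no versions or settings. The authors deposited log2 values, log2(RPKM + 1), with genes without reads at 0.0001, which was set to 0. Base 2 was checked on length-weighted sums (1030000 to 1071000 per library, against 7809000 or more with base e). The APC values come from a column headed as monocyte-derived cells, the one column that matched no other sample.

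Read totals were estimated from the steps between low values (74.7% to 76.7% of low values within 0.1 reads of whole). They serve the counting intervals only. Genes were tested with limma 3.58.1 in R 4.3.3 (eBayes with a mean-variance trend, Benjamini-Hochberg adjustment over all genes tested), where RPKM was at least 1 in as many libraries as the smaller group holds. Both contrasts with the DKI group used the fit of all 10 Th17 libraries. The CCL17 comparison used its own 6 libraries. The procedure was run on simulated data with independent noise and, for each gene, the same spread in every group. The simulated libraries lacked shifts shared by many genes and unequal spreads of groups, so that run cannot show how the fits behave under them. Myeloid genes were counted at an RPKM of at least 5 in either library.

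The members and gene lists were chosen with earlier results of these data known. The genes named for a comparison are anchors, the 4 highest and lowest folds in each set, called members, and up to 4 genes per other list, and other members are given by level or fold. The replicate numbers of the CCL17 experiment were taken to pair libraries, since deviations of same-numbered libraries correlated at 0.77, 0.51 and 0.52 across genes, which are not independent replicates. Libraries 2 and 3 correlated across numbers too (0.50 and 0.53). Deviations of same-numbered WT and DKI libraries correlated at 0.45. The main fits used no block. Alternatives covered the pseudocount, filters, centring, quantile normalization, the trend, the replicate block, the libraries fitted, the fold mark and leaving out each library.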

Additional observations from a re-analysis of the deposited data

How the results depend on the processing

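Of 191 alternatives over 21 results, 168 kept a count within 1.5 times, or a median within 1 SD between replicates (0.1 for single libraries), and 23 moved it further. For DKI against WT this SD is wide and lets medians change sign. For DKI against WT, quantile normalization called 7 genes (1 higher, 6 lower), and leaving out 1 library at a time called 1 to 559 genes and gave S phase medians from -0.22 to 0.90 and mitosis medians from -0.03 to 0.78, with 1 library left in a group. The replicate block called 0 genes there. In the CCL17 comparison the block called 2 genes, and mitosis medians ran from -0.08 to 0.06 when 1 library was left out. For the DKI cultures of the 2 sets, leaving out 1 library called 11 to 27 members, with S phase medians from -0.51 to 0.57 and mitosis medians from 0.47 to 1.22. Fitting these groups alone called 2423 genes and 14 members. Adding the replicate block to that fit, after seeing the data, called 833 genes (578 higher, 255 lower) and 4 members. The block in the fit of all 10 libraries called 15 members. Quantile normalization gave 1448 higher and 2580 lower genes, beside 1777 and 2046. The cause of these moves was not tested. For cord against bone marrow monocytes, a pseudocount of 0.1 gave medians of -3.74 (S phase) and -4.69 (mitosis), centring on the median gene gave -2.82 and -3.51, and a 2-fold mark counted 2494 genes. It counted 187 genes for APCs. The S phase excess over mitosis genes, 0.78 higher in the WT and DKI libraries than in the CCL17 experiment, was 1.08 higher with medians over genes.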
